A study of Saccharomyces cerevisiae with 6 samples.

Results

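The 10 genes described here encode the core of glutathione metabolism in the budding yeast Saccharomyces cerevisiae, and they were taken from a list of standard gene names. GSH1 and GSH2 make glutathione, GLR1 reduces it, GRX1 and GRX2 are glutaredoxins, GTT1 and GTT2 are transferases, and GPX1, GPX2 and HYR1 are peroxidases. Each was found on the array by its systematic name, with 1 probe per gene, so all 10 members were measured among 6256 genes. BH13 is a mutant that was selected for better resistance to coniferyl aldehyde, a lignin-derived phenolic aldehyde that slows yeast growth, and it is 1 strain. REF is its reference strain. No agent was added to either, and both were grown in yeast minimal medium at 30 °C with shaking at 150 rpm to log phase, at an optical density of about 1.0. Each strain had 3 samples, with 1 one-colour array per sample. Whether the samples came from separately started cultures is not stated in the labels, so the spread behind each p-value may be partly technical.

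Glutathione is a small thiol peptide of glutamate, cysteine and glycine that keeps the cytosol reducing. Glutaredoxins use it to reduce disulfides and to free proteins from bound glutathione, transferases join it to reactive compounds, and glutathione reductase returns the oxidised form to the reduced form at the expense of NADPH. Reactive aldehydes and peroxides are among the compounds this system handles in yeast. The comparison asks how these steps differ in untreated cultures of the mutant and of its reference strain.

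Of the 10 genes, 7 were higher in BH13, none was lower and 3 did not pass the test. The 7 were both glutaredoxins, both transferases and the 3 peroxidases, and their increases ranged from 1.35-fold for GTT2 to 6.42-fold for GRX1. The 3 that did not pass were both synthesis genes and the reductase. The test was limma over 5890 genes, with p-values adjusted by the Benjamini-Hochberg method and called under 0.05. It called 38.0% of all genes higher in BH13 and 43.3% lower. In this comparison 81.3% of all genes were called, so a call alone says little about a single gene. The median difference was 0.56 over the 10 members and -0.07 over all genes tested, on the log2 scale and as BH13 minus REF. Increases of at least 2-fold were found for 3 members, GRX1, GRX2 and GPX1, and for 17.9% of all genes.

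Levels below are log2 processed signal relative to the 75th percentile of the same array. They compare arrays for 1 gene and not genes with each other, because probes differ in brightness. No spot of the 10 members was saturated, and all 120 were well above background. The 2 spots of a probe on 1 array differed by a median of 0.05 and by at most 0.24, on the log2 scale. Each difference is given ± its standard error in the limma fit (n = 3 per strain), and the number of arrays limits the precision.

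**Figure D1:**
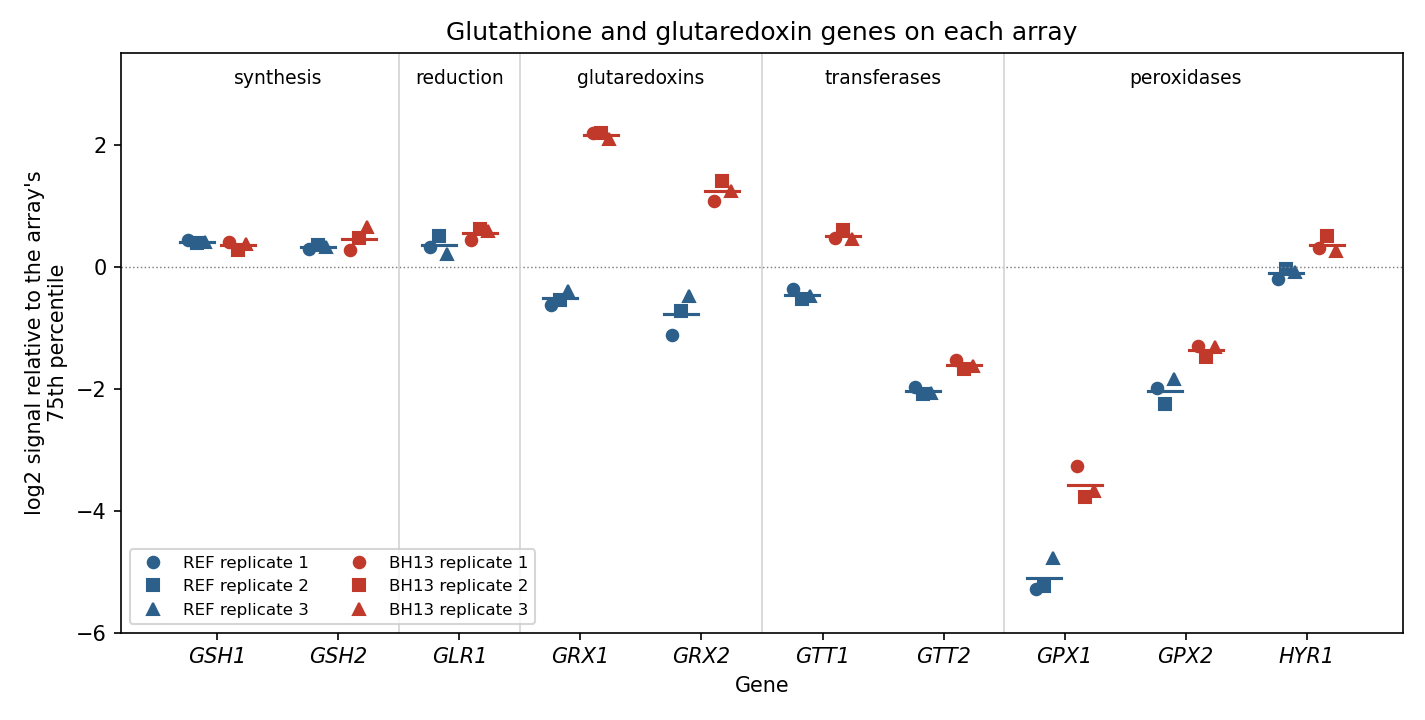
Log2 signal of the 10 genes relative to the 75th percentile of each array (vertical axis), by gene and step (horizontal axis), with 1 point per array and a line at each strain's mean of 3 arrays. The BH13 points lie above all REF points for the 7 genes of the glutaredoxins, transferases and peroxidases, and the strains overlap for GSH1, GSH2 and GLR1.

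The arrays of the strains were well separated across the genome. Across the genes tested, which are not independent replicates, arrays correlated at 0.994 to 0.998 within a strain and at 0.854 to 0.877 across strains. The BH13 arrays shared 1 slide, and REF replicate 3 lay on a different slide from the other REF arrays. No slide held both strains, and the strains were scanned on different days. Strain therefore cannot be told apart from slide or from day of scanning. All 15 markers of a cells and haploid cells in the lists used here were lower in BH13, where 43.3% of all genes were. The median difference of the 15 was -3.64, and no BH13 array had HO, MFA2 or AGA2 well above background. Of 3 alpha-cell markers tested, 2 were higher, where 38.0% of all genes were. The summed signal of these 3 was low in both strains and overlapped. It was 0.141 to 0.165 times the 75th percentile in BH13 and 0.119 to 0.144 times in REF. Among 8 markers of the exit from log phase, 7 rose and 1 fell, where 38.0% of all genes were higher and 43.3% lower. The summed signal of these 8 was 34.4 to 37.5 times the 75th percentile in BH13 and 1.03 to 1.54 times in REF. Such sums weigh the brightest probes most, so they compare arrays for 1 list and not lists with each other. The part of these markers in the results below was not tested.

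Neither gene of glutathione synthesis passed the test. GSH1 encodes gamma-glutamylcysteine synthetase, the first and rate-limiting enzyme. Its level was 0.40, 0.27 and 0.38 on BH13 replicates 1 to 3 and 0.44, 0.39 and 0.40 on REF replicates 1 to 3. The strains overlapped, and the difference was -0.06 ± 0.07 (limma adjusted p = 0.466). The 95% interval of that difference ran from a ratio of 0.854 to one of 1.08, BH13 over REF. Its sign turned with cyclic loess normalization, where the difference was 0.015.

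GSH2 encodes glutathione synthetase, which adds glycine in the last step. Its level was 0.26, 0.46 and 0.64 on the BH13 arrays and 0.29, 0.35 and 0.32 on the REF arrays. The BH13 arrays spread more widely than the REF arrays, with an SD of 0.19 against 0.03, and the ranges overlapped. The difference was 0.14 ± 0.10 (limma adjusted p = 0.241), with a 95% interval of 0.934 to 1.29 for the ratio. It was 0.23 without BH13 replicate 1 (limma adjusted p = 0.0567) and 0.044 without BH13 replicate 3 (limma adjusted p = 0.699), so its size rested on single arrays.

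Glutathione reductase, encoded by GLR1, was close to the threshold. Its level was 0.44, 0.61 and 0.58 on the BH13 arrays and 0.32, 0.51 and 0.21 on the REF arrays. REF replicate 2 lay above BH13 replicate 1, and the other REF values lay below all BH13 values. The difference was 0.20 ± 0.10 (limma adjusted p = 0.0910), with a 95% interval of 0.982 to 1.34 for the ratio. Without REF replicate 2 the difference was 0.28 and was called (limma adjusted p = 0.0248), and it was called with cyclic loess normalization as well, at 0.27 (limma adjusted p = 0.0239).

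Both glutaredoxins among the members rose, and theirs were the largest estimated differences among the members. GRX1 was at 2.19, 2.19 and 2.10 on the BH13 arrays and at -0.62, -0.54 and -0.40 on the REF arrays. The values within a strain lay close together and far from the other strain's values. GRX1 rose by 2.68 ± 0.08 (limma adjusted p = 6.21e-08), which is 6.42-fold with a 95% interval of 5.62 to 7.32. Only 5.03% of the genes tested had a larger absolute difference. GRX1 is also the 1 member held in the authors' deposited table of processed values, in which no probe had an absolute difference under 0.916.

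GRX2, which encodes the glutaredoxin found in both cytosol and mitochondria, was at 1.08, 1.41 and 1.24 on the BH13 arrays and at -1.12, -0.73 and -0.48 on the REF arrays. The strains did not overlap, but the REF values spread more widely than those of GRX1, with an SD of 0.33 against 0.11. GRX2 rose by 2.02 ± 0.16 (limma adjusted p = 6.29e-06), which is 4.05-fold with a 95% interval of 3.12 to 5.26. A larger absolute difference was found for 10.1% of genes. The sequences of GRX1 and GRX2 are similar, and whether the probe of one also reads the other was not tested.

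The 3 genes whose 6 array values most resembled those of GRX1, once each gene was centred on its own mean, were TSA2, RIM4 and ALG13. Likeness was measured as the root mean square distance over the 6 arrays among 5147 other genes with a standard symbol. That distance was 0.05 for TSA2, which encodes a cytoplasmic peroxiredoxin, 0.07 for RIM4, which encodes a regulator of meiosis, and 0.08 for ALG13, which encodes an enzyme of protein glycosylation in the endoplasmic reticulum. With only 2 strains, such likeness mostly reflects a strain difference of similar size.

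Both glutathione S-transferases rose. GTT1, whose product associates with the endoplasmic reticulum, was at 0.46, 0.60 and 0.45 on the BH13 arrays and at -0.38, -0.53 and -0.49 on the REF arrays. It rose by 0.97 ± 0.08 (limma adjusted p = 7.54e-06), which is 1.96-fold with a 95% interval of 1.72 to 2.23. GTT2 was at -1.54, -1.67 and -1.63 on the BH13 arrays and at -1.98, -2.10 and -2.07 on the REF arrays. It rose by 0.43 ± 0.08 (limma adjusted p = 0.000777), which is 1.35-fold, and 66.8% of genes had a larger absolute difference. Neither gene's strains overlapped.

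All 3 peroxidase genes rose. GPX1 and GPX2 encode peroxidases that act on hydrogen peroxide and on lipid hydroperoxides. GPX1 was at -3.27, -3.77 and -3.68 on the BH13 arrays and at -5.29, -5.23 and -4.77 on the REF arrays. It rose by 1.52 ± 0.17 (limma adjusted p = 4.94e-05), which is 2.87-fold with a 95% interval of 2.18 to 3.78. Its probe had the lowest signal of the 10, at 168 to 299 intensity units in BH13 and 71.4 to 130.3 in REF before scaling. With normexp background correction its difference was 1.18 and remained called (limma adjusted p = 6.79e-05). In the median signals that this correction starts from, negative control spots averaged 34.4 to 38.8 units above local background in BH13 and -3.85 to 3.11 in REF. In the scanner's own background-subtracted signals they averaged -5.78 to -3.06 units in BH13 and -3.00 to -2.56 in REF.

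GPX2 was at -1.30, -1.49 and -1.32 on the BH13 arrays and at -1.99, -2.26 and -1.85 on the REF arrays. It rose by 0.66 ± 0.12 (limma adjusted p = 0.000729), which is 1.59-fold. HYR1, also called GPX3, encodes a peroxidase that senses hydrogen peroxide and passes the oxidation on to the transcription factor Yap1. It was at 0.30, 0.50 and 0.25 on the BH13 arrays and at -0.20, -0.04 and -0.10 on the REF arrays. It rose by 0.46 ± 0.09 (limma adjusted p = 0.00149), which is 1.38-fold. The strains did not overlap for GPX2 or HYR1, and their differences were exceeded by 51.6% and 64.4% of genes. HYR1 and GTT1 are neighbours in the RefSeq annotation, and their increases were 1.38-fold and 1.96-fold.

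The 3 BH13 values lay wholly above the 3 REF values for the same 7 members that were called, against 39.2% of all genes, and wholly below them for none of the 10, against 44.6% of all genes. Among these 7, REF replicate 3, alone on its slide, was the highest REF array for 4 genes, GRX1, GRX2, GPX1 and GPX2. The share of all genes for which that array was highest was not computed, so this count is descriptive only. Without any 1 array, each of the 7 stayed called higher. Each also stayed called with the slide as a random block, but no slide held both strains, so that block cannot separate slide from strain.

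**Figure D2:**
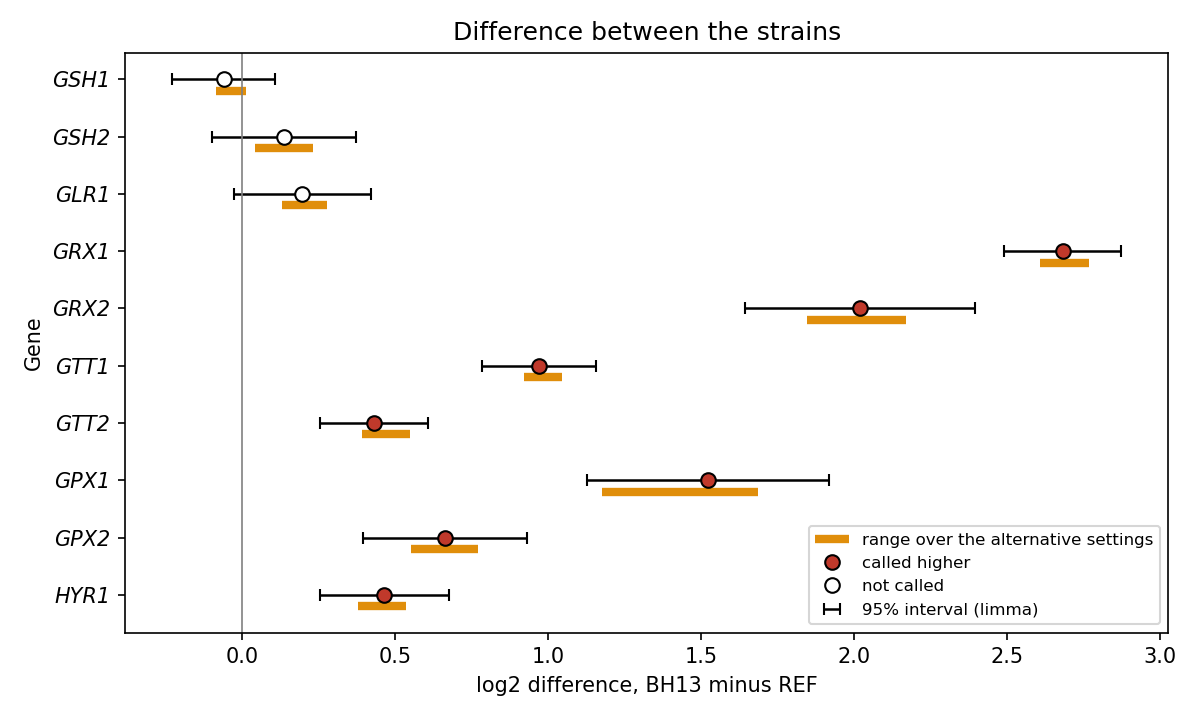
Log2 difference, BH13 minus REF (horizontal axis), for each of the 10 genes, with the 95% interval from limma (black bars) and the range of the estimate over the alternative settings (orange bars). The intervals of GSH1, GSH2 and GLR1 include 0, and the 7 genes called higher lie between 0.43 and 2.68.

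Whether genes of the same step changed unequally was asked with the ratio of their signals on each array. Scaling all signals of an array by the same factor, as done here, leaves this ratio unchanged. Quantile and cyclic loess normalization can change it, and the ratios were not computed under them. For 6 pairs the ratio was compared between strains by an exact two-sided permutation test, which cannot give a p below 0.1 with 3 arrays against 3. GRX1 over GRX2 was 1.11, 0.78 and 0.85 on the BH13 arrays and 0.50, 0.19 and 0.07 on the REF arrays, as log2 ratios. It was higher in BH13 by 0.66 without overlap (exact p = 0.1, adjusted over the pairs 0.15).

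GTT1 over GTT2 was 2.0, 2.28 and 2.09 on the BH13 arrays and 1.60, 1.57 and 1.58 on the REF arrays, a difference of 0.54 without overlap (exact p = 0.1, adjusted 0.15). The REF arrays were almost identical in this ratio, with an SD of 0.02 against 0.14 for BH13. GPX1 over GPX2 and GPX1 over HYR1 were higher in BH13 by 0.86 and 1.06, again without overlap and with the same p-values. With normexp background correction the first of these was 0.51.

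The other pairs overlapped between strains. GPX2 over HYR1 differed by 0.20 (exact p = 0.5), and GSH2 over GSH1 differed by 0.20 (exact p = 0.3). Single arrays moved both values. GPX2 over HYR1 was 0.051 without REF replicate 2, 0.14 without BH13 replicate 1, 0.13 without BH13 replicate 3 and 0.33 without BH13 replicate 2. GSH2 over GSH1 was 0.12 without BH13 replicate 3 and 0.32 without BH13 replicate 1. These tests could not reach the threshold of 0.05 for any pair, so they do not settle which members of a step changed more.

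**Figure D3:**
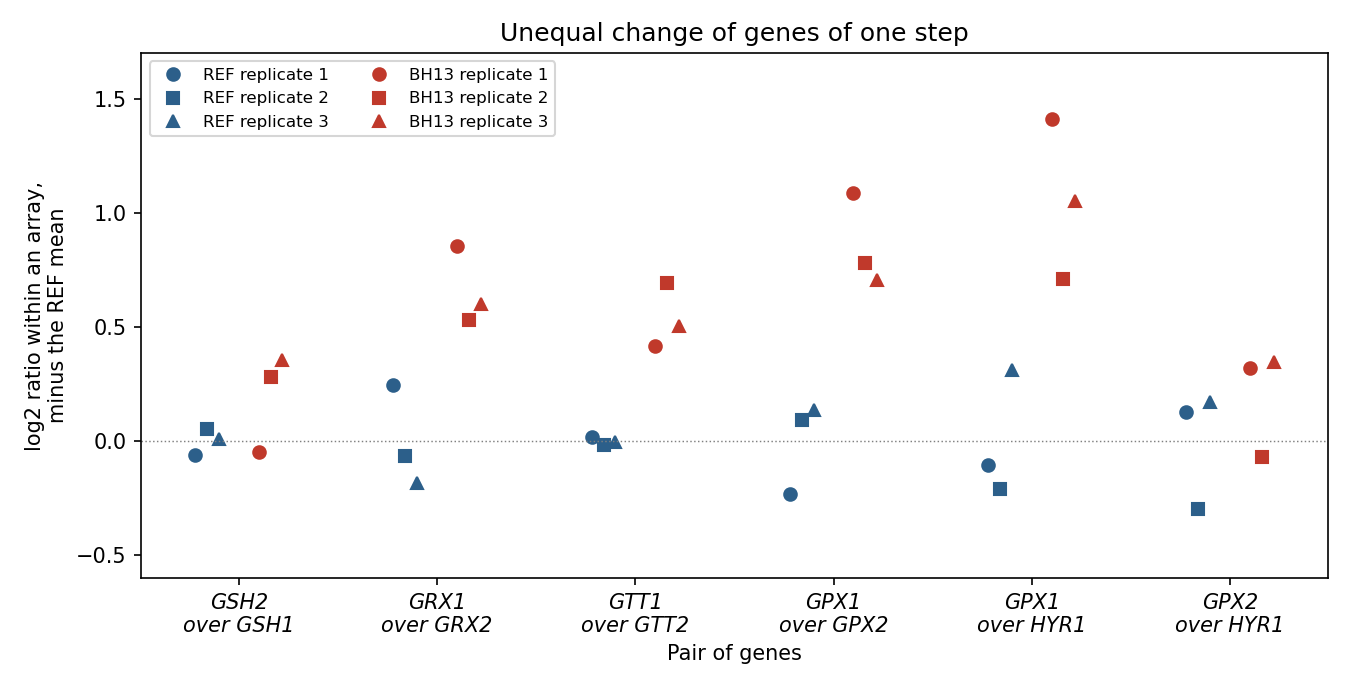
Log2 ratio of the signals of 2 genes on the same array, minus the mean of that ratio over the REF arrays (vertical axis), for 6 pairs of genes of the same step (horizontal axis), with 1 point per array. The strains do not overlap for GRX1 over GRX2, GTT1 over GTT2, GPX1 over GPX2 and GPX1 over HYR1, and they overlap for GSH2 over GSH1 and GPX2 over HYR1.

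A further 38 genes that use, move, break down or supply glutathione, or regulate these genes, were counted beside the 10. Of the 37 tested, 26 were higher in BH13, 8 were lower and 3 were not called, with a median difference of 0.62, where 38.0% of all genes were higher and 43.3% lower. These genes, like the 10 members, were chosen with earlier results of these data known, so the shares are not an independent comparison. With normexp background correction 27 of the 37 were higher and 5 lower. URE2, DUG2 and DUG3 lost their calls as lower, and GND1 and MSN4 lost theirs as higher. ECM38, DUG1 and MSN2 were newly called higher. GTO3, which encodes a transferase, was well above background on 0 of 6 arrays and was not tested.

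All 6 other glutaredoxins rose, where 38.0% of all genes were higher. The increases of the 6 ran from 0.30 to 1.36 on the log2 scale, with a median of 0.69. Their calls held under every alternative setting in which they were measured. GRX7, which encodes a monothiol glutaredoxin of the early secretory pathway, was at 0.16, -0.03 and 0.06 on the BH13 arrays and at -1.35, -1.24 and -1.28 on the REF arrays. It rose by 1.36 ± 0.08 (limma adjusted p = 1.03e-06). GRX5, whose mitochondrial product helps to assemble iron-sulfur clusters, rose by 0.94 ± 0.10 (limma adjusted p = 4.71e-05). GRX3 with GRX4 and GRX6 with GRX7 are duplicate pairs, so their probes may not be fully separate.

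Of 3 other transferase-like genes tested, 2 rose and 1 fell, where 38.0% of all genes were higher and 43.3% lower. ECM4 and GTO1 encode omega-class transferases. ECM4 was at -1.48, -1.35 and -1.43 on the BH13 arrays and at -3.72, -3.75 and -3.58 on the REF arrays, and it rose by 2.26 ± 0.08 (limma adjusted p = 8.95e-08). GTO1 rose by 2.23 ± 0.13 (limma adjusted p = 1.15e-06), or by 1.65 with normexp background correction. URE2, a regulator of nitrogen genes with a transferase-like fold, fell by 0.27 ± 0.07 (limma adjusted p = 0.00507), and with normexp background correction it was not called (limma adjusted p = 0.0818).

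All 5 genes that remove aldehydes as glutathione adducts rose, where 38.0% of all genes were higher. The median difference of the 5 was 1.14, and they were called under every alternative setting in which they were measured. GLO1, glyoxalase I, which acts on the adduct of methylglyoxal and glutathione, was at 2.17, 2.18 and 2.23 on the BH13 arrays and at 0.58, 0.27 and 0.71 on the REF arrays. It rose by 1.67 ± 0.11 (limma adjusted p = 2.32e-06). GLO2, the cytosolic glyoxalase II that completes the route, rose by 1.54 ± 0.11 (limma adjusted p = 3.62e-06). The other members were GLO4, the mitochondrial glyoxalase II, SFA1, which oxidises the adduct of formaldehyde and glutathione, and YJL068C, which hydrolyses S-formylglutathione.

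Genes of glutathione breakdown and transport went both ways, with 4 of 10 higher, 4 lower and a median of 0.16, where 38.0% of all genes were higher and 43.3% lower. The split depended on the processing. With normexp background correction 6 were higher and 2 lower, as ECM38 and DUG1 gained a call and DUG2 and DUG3 lost theirs. With quantile or cyclic loess normalization, or without BH13 replicate 1 or BH13 replicate 3, 2 were lower. GCG1, which encodes a cytosolic enzyme that degrades glutathione, rose by 1.11 ± 0.08 (limma adjusted p = 3.99e-06). GEX2, a glutathione exchanger gene, rose by 0.86 ± 0.08 (limma adjusted p = 2.07e-05), but GEX1 and GEX2 are near copies, so either probe may read both. OPT1, the glutathione importer of the plasma membrane, was at -5.03, -4.89 and -4.78 on the BH13 arrays and at -4.26, -3.74 and -4.06 on the REF arrays. It fell by 0.88 ± 0.13 (limma adjusted p = 0.000332), or by 0.49 with normexp background correction. YCF1, which pumps glutathione conjugates into the vacuole, fell by 0.35 ± 0.07 (limma adjusted p = 0.00195).

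Of 7 genes that supply cysteine or NADPH, 6 rose and 1 fell, where 38.0% of all genes were higher and 43.3% lower. The median difference of the 7 was 0.62. GND2, the minor isoenzyme of phosphogluconate dehydrogenase, was at -0.77, -0.42 and -0.64 on the BH13 arrays and at -3.80, -3.80 and -3.51 on the REF arrays. It rose by 3.09 ± 0.12 (limma adjusted p = 1.23e-07). ALD6, the cytosolic aldehyde dehydrogenase that makes NADPH, rose by 2.36 ± 0.10 (limma adjusted p = 2.04e-07). CYS4, cystathionine beta-synthase, which leads to cysteine, was at 1.75, 1.86 and 1.78 on the BH13 arrays and at 2.76, 2.87 and 2.78 on the REF arrays. It fell by 1.00 ± 0.07 (limma adjusted p = 3.56e-06). GND1, counted among the 6, was at 0.30 and lost its call under 6 alternative settings, and its sign turned with quantile normalization, to -0.05.

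Among 6 regulators, 3 were higher and 2 lower, where 38.0% of all genes were higher and 43.3% lower. YAP1, the main activator of the oxidative stress response and of GSH1 and GLR1, rose by 0.76 ± 0.08 (limma adjusted p = 3.58e-05), and its paralog CAD1 rose by 0.74 ± 0.11 (limma adjusted p = 0.000211). SKN7, which acts with Yap1 on many of these genes, was at -3.10, -2.65 and -2.89 on the BH13 arrays and at -1.72, -1.53 and -2.00 on the REF arrays. It fell by 1.12 ± 0.15 (limma adjusted p = 0.000125). MET4, the activator of sulfur amino acid genes, fell by 0.47 ± 0.10 (limma adjusted p = 0.00297). MSN4, a general stress regulator, was at 0.20 (limma adjusted p = 0.0354) and lost its call under 6 alternative settings. Its paralog MSN2 was at 0.16 (limma adjusted p = 0.167), and it was called higher with normexp background correction, at 0.23 (limma adjusted p = 0.0398). These are transcript levels, and the activity of the factors was not measured.

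**Figure D4:**
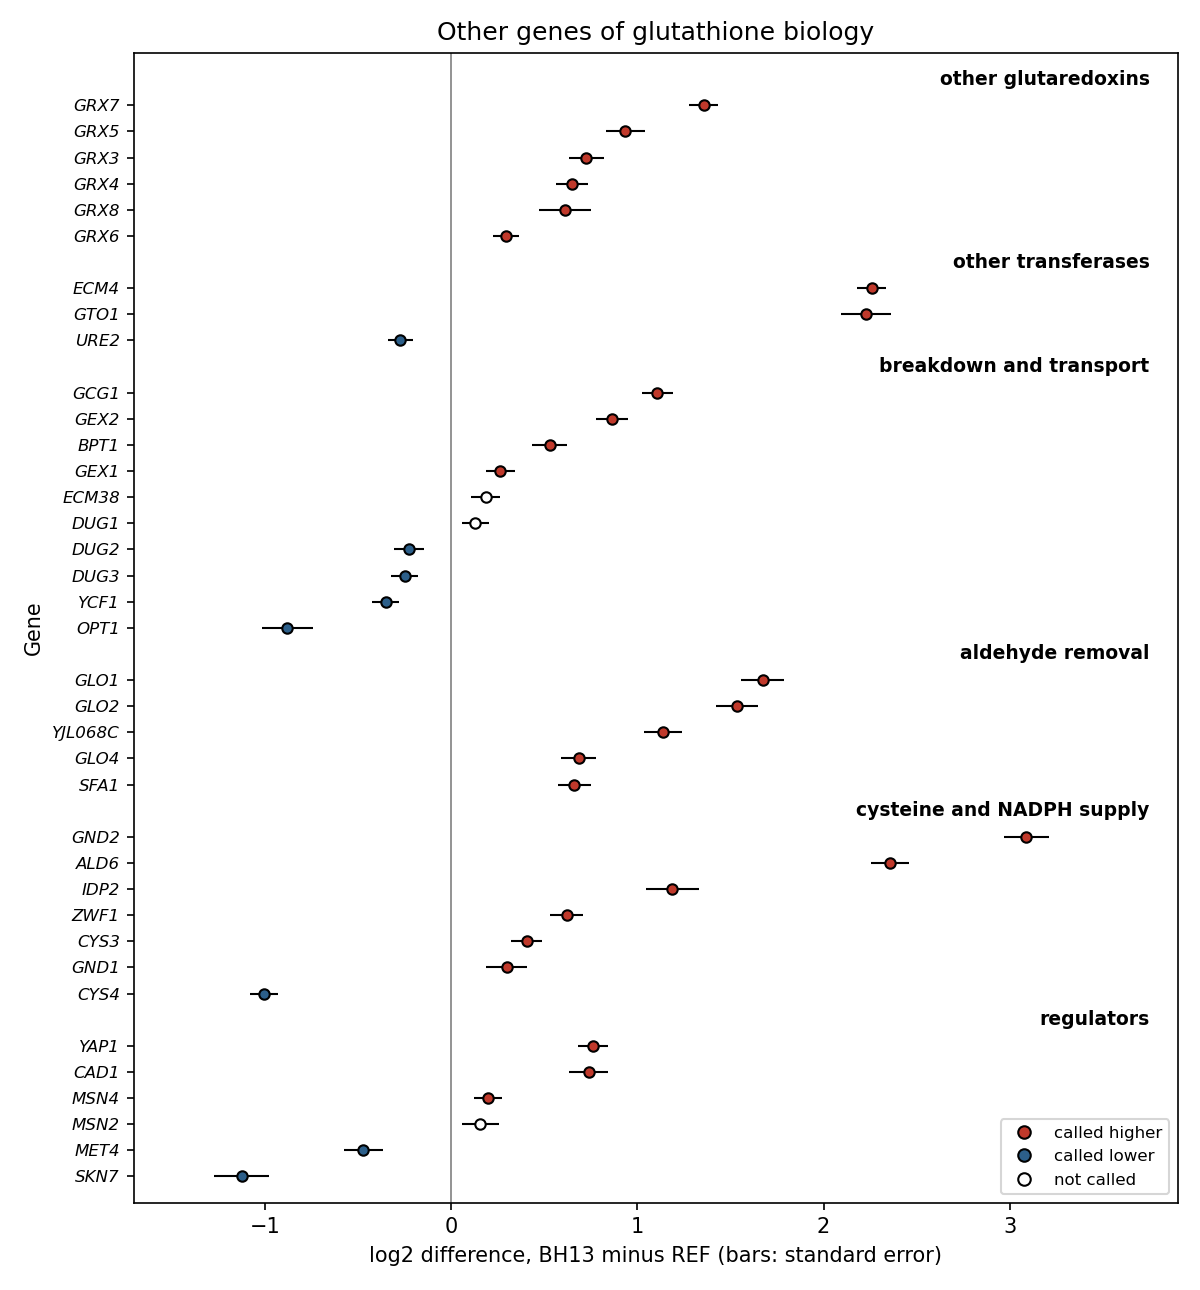
Log2 difference, BH13 minus REF (horizontal axis), with its standard error, for the 37 tested genes outside the 10 members, grouped by role (vertical axis). All 6 other glutaredoxins and all 5 aldehyde removal genes lie to the right of 0, and CYS4 and SKN7 are the genes farthest to the left.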

How the data were processed

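Cy3-labelled RNA of 3 BH13 and 3 REF samples was measured on Agilent one-colour arrays, per the labels' protocols. The deposited scanner files hold spot intensity. Per the file headers, Agilent Feature Extraction 10.7.3.1 subtracted the background, whereas version 9.1 is named in the submitters' processing notes. The authors' deposited table of log2 values covers 1325 probes, and how it was made is not given in the sources used here. Its probes were centred on a median of 0, and its strain differences had a slope of 1.00 against those from the scanner values, with the same sign for all 1325.

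After removal of feature outliers, log2 processed signals of the 2 spots per probe were averaged and scaled by the 75th percentile of the array (2301 to 4905 units). The test took the 5890 probes that exceeded background clearly (the scanner's own flag) on 3 or more of 6 arrays, and left out 366. The two-sided strain test used limma 3.58.1 (lmFit, eBayes; R 4.3.3) and was first tested on simulated data. Figures used matplotlib 3.10.9.

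RefSeq annotation of assembly R64 gave symbols for 5756 of 6256 systematic names and was used for names and neighbours only. Members and lists were chosen with earlier results of these data known. The naming rule takes all 10 members, up to 2 called genes per direction from each other list, all regulators, and the 3 genes nearest in pattern to the member that changed most. Other genes named where a count needed them (GLO4, SFA1, YJL068C, GRX3, GRX4, GRX6, GND1, GEX1, ECM38, DUG1, DUG2, DUG3, GTO3, HO, MFA2 and AGA2) were added after their values were seen. Alternatives covered the background correction (normexp on median signals, offset of 50), the scaling (median, quantile, cyclic loess), the dim-probe filter (none, or all 6 arrays), keeping outlier spots, a trended robust variance, the authors' table, a replicate block, a random slide block and omission of each array. Omitting spots whose background was uneven was chosen after seeing the data.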

Additional observations from a re-analysis of the deposited data

How the results depend on the processing

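The 7 members called higher kept their direction and their call under all alternatives run on the scanner values, and GSH2 was never called. GSH1 reversed in sign with cyclic loess normalization, to 0.015 without a call, and GLR1 was called with that normalization, at 0.27, and without REF replicate 2. Over the arrays left out in turn, GLR1 ranged from 0.13 to 0.28, and the count of members called higher from 7 to 8. The log2 ratio of GPX1 over GPX2 moved from 0.86 to 0.51 with normexp background correction. The authors' table held 1 member, GRX1, and gave 581 genes higher and 744 lower, which is every one of its 1325 probes. It holds no small differences, so the call of GRX1 in it is no separate check. Quantile, loess and median scaling moved the median of all genes by at most 0.08. Replicate numbers were shared between strains. Deviations of same-numbered arrays correlated at 0.13, 0.24 and 0.0027, and those of differently numbered arrays at -0.21 to 0.09. These values do not settle whether the numbers pair the samples, and the main test did not pair them. With the replicate block 2269 genes were higher and 2576 lower, and no member's call changed. All 6 pair tests were too small to reach 0.05. The background correction changed the size of GPX1, GTO1 and OPT1, as given above. It ended the calls of URE2, DUG2, DUG3, GND1 and MSN4, and with it ECM38, DUG1 and MSN2 gained a call.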
